A study of Homo sapiens with 6 samples.

Results

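Chromosome 3 holds 60 of the 1705 genes in the deposited table when its protein-coding rows are taken, symbols that start with ZNF or SLC are dropped, and MST1R, CLDN1, ACKR2 and COL8A1 are left out. Of these 60 genes, 34 have loci below 90 Mb and 26 above it. All 60 were matched to RefSeq protein-coding genes of chromosome 3, which bears out the chromosome given in the table. The table itself had been selected on the contrast described here: the smallest absolute log2 ratio of any listed gene is 1.0002 in the authors' deposited table. The direction and size of each difference are therefore given as a description, and no count of them is independent support.

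RNA was sequenced from a gefitinib-resistant lung adenocarcinoma line, PC9-GR, and from its parent, PC9, with 3 libraries of independent cultures each. Gefitinib blocks the kinase of EGFR, and both lines are labelled as epithelial cells with an EGFR exon19 del genotype. PC9-GR had been selected in steps of gefitinib between 0.5 and 10 µM and then maintained at 10 µM, and it grew drug-free for 7 days before RNA was taken. PC9 is the untreated parental line. Both were grown in RPMI-1640 with serum. PC9-GR is 1 derived line, so a difference belongs to that line and need not hold for resistance in general. None of the 8 epithelial and lung adenocarcinoma genes looked up to check the label is in the table, and they were not analysed here.

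The centromere of chromosome 3 lies near 90 Mb, so loci below that position are on the short arm or close to it and loci above on the long arm. Loss of the short arm is a frequent change in lung cancers, and it carries FHIT at a common fragile site, the retinoic acid receptor gene RARB and SEMA3F, all studied as candidate tumour suppressors. Gain of the distal long arm is known above all from squamous lung cancers. Copy number was not measured in these libraries.

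Below 90 Mb, 29 of the 34 genes had lower FPKM (fragments counted per gene, scaled for gene length and library size) in PC9-GR and 5 had higher FPKM, a share of 85.3% lower. Above 90 Mb, 7 of 26 were lower and 19 higher, a share of 26.9% lower. Over all 1375 coding genes of the table, 652 were lower (47.4%), and over the coding genes of the other chromosomes 611 of 1308 were (46.7%). The median difference in mean log2(FPKM + 1), PC9-GR minus PC9, was -0.96 below 90 Mb and 0.84 above it, against 0.36 over all listed coding genes. The split position was chosen with these values known, so the contrast between the 2 sides carries no test.

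A gene was tested with limma if it reached 1 FPKM in at least 3 of the 6 libraries, which 24 genes below and 21 above did. Limma called 23 lower and 1 higher below 90 Mb, and 5 lower and 16 higher above, at an adjusted p under 0.05. In the whole table it called 51.3% of 1207 tested genes lower and 48.4% higher, so nearly every tested gene of this selected table was called, and nothing is read from the number called. The groups did not overlap for 34 of 34 genes below 90 Mb and for 23 of 26 above, which makes 35 lower and 22 higher genes. Of all listed genes, 46.6% were lower without overlap and 48.3% higher without overlap. The 3 with overlapping libraries were ABI3BP, ZPLD1 and GAP43. The remaining 15 genes, 10 below and 5 above, stayed under the filter and get values but no call. The filter admits some genes through 1 group alone: every PC9 library was under 1 FPKM for 6 of the tested genes, and every PC9-GR library for 5.

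**Figure D1:**
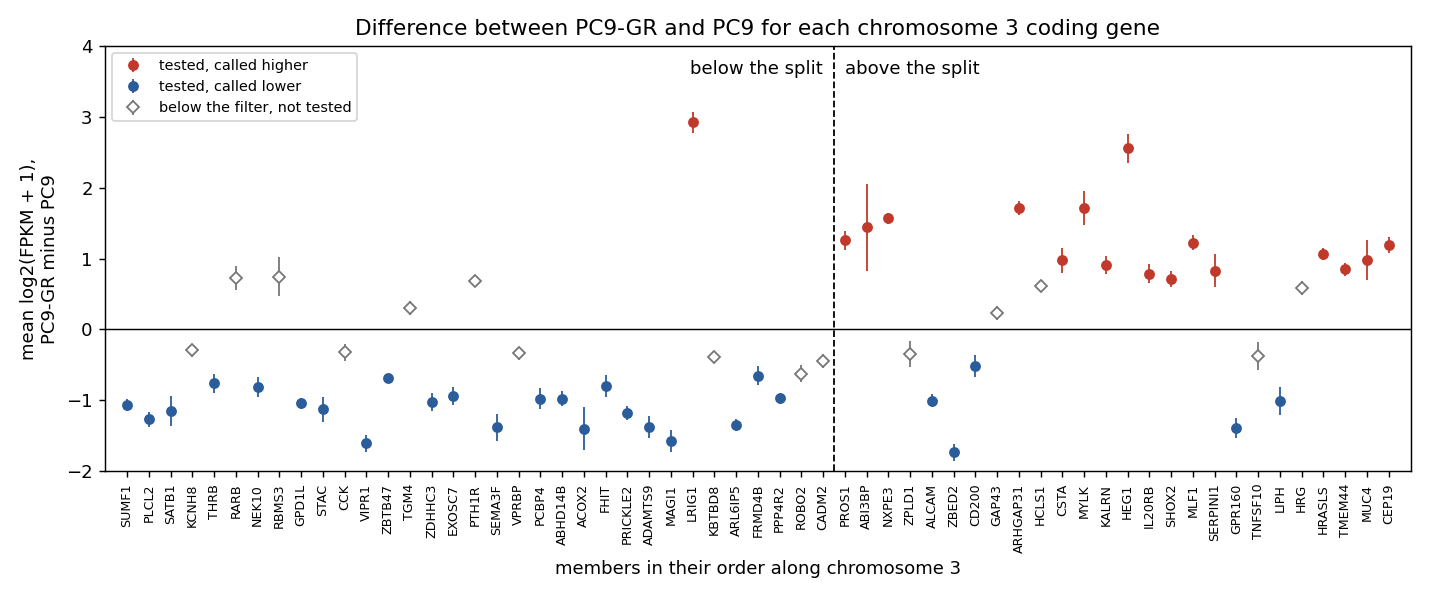
Difference in mean log2(FPKM + 1), PC9-GR minus PC9, for the named genes of the set in chromosomal order, with a dashed line at the 90 Mb split. Points are differences of means over 3 libraries a group, and bars are standard errors from the spread in the 2 groups; left of the line LRIG1 is the single filled point above 0, and right of it 16 of 21 filled points are above 0.

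The 29 lower genes below 90 Mb differed by a median of 2.49-fold, within 2.00-fold to 8.64-fold, and 15 of them by less than 2.5-fold. Only VIPR1 and MAGI1 were more than 4-fold lower. Over all lower coding genes of the table the median was 2.76-fold. The 5 higher genes below 90 Mb had a median of 5.63-fold, within 3.602-fold to 51.3-fold. The 19 higher genes above 90 Mb had a median of 2.83-fold, within 1.97-fold to 8.95-fold, against 3.22-fold over all higher coding genes. Since the table starts at about 2-fold by construction, the lower end of these ranges is set by the selection.

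Each library showed the 2 sides apart. The median over the 34 genes below 90 Mb was 1.78, 1.86 and 1.64 FPKM in the PC9-GR libraries, against 4.42, 4.36 and 4.19 FPKM in the PC9 libraries. The median over the 26 genes above was 3.74, 5.49 and 5.22 FPKM in PC9-GR, against 1.46, 1.87 and 1.65 FPKM in PC9. On both sides the libraries of a line lay closer to each other than to the other line. The genes had been selected on these same libraries, and the split was chosen with their values known. This separation is therefore largely built in and is no independent support. PC9-GR replicate 1 held the lowest of the PC9-GR values for 34 of the 60 genes.

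**Figure D2:**
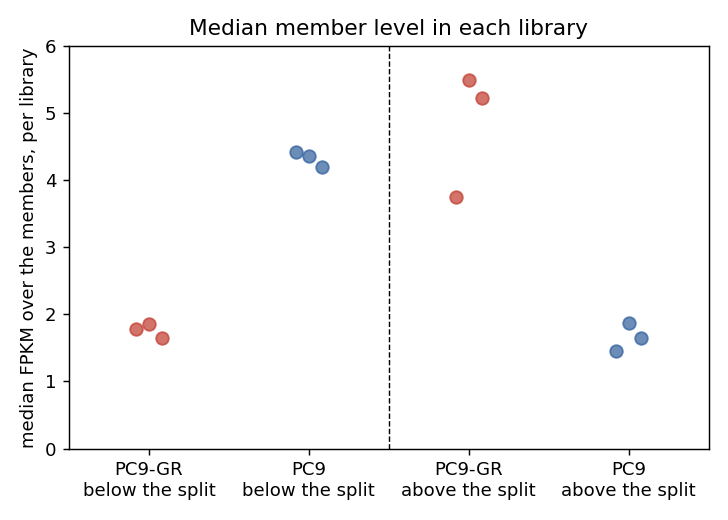
Median FPKM over the 34 genes below and the 26 genes above the 90 Mb split, 1 point for each library, with PC9-GR left of PC9 on each side. Below the split the PC9-GR medians lie between 1.64 and 1.86 FPKM and the PC9 medians between 4.19 and 4.42 FPKM; above it they lie between 3.74 and 5.49 FPKM in PC9-GR and between 1.46 and 1.87 FPKM in PC9.

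The balance of called directions changed most with libraries scaled to equal totals. Summed over the listed genes, FPKM came to 16705 to 17114 in PC9-GR and 28346 to 30541 in PC9. As deposited, 28 of the 60 genes were called lower and 17 higher. With each library scaled to the same total, 16 were called lower and 17 higher, with 14 lower calls below 90 Mb and 2 above. The loss of lower calls was table-wide: 433 genes were called lower and 586 higher with equal totals, against 619 lower and 584 higher as deposited. Median-ratio scaling gave 23 lower and 1 higher call below 90 Mb, and 5 lower and 16 higher above, as deposited. Quantile normalization gave 21 lower and 1 higher below, and 4 lower and 16 higher above. All 3 scalings were computed over the listed genes alone, which were selected as changed. The cause of the unequal totals was not tested. In bulk RNA, fewer cells that express a gene and less of its RNA per cell cannot be told apart. Values below are FPKM in replicates 1, 2 and 3, and a mean comes with its SD over 3 libraries.

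The receptor regulator LRIG1 stood against its surroundings. LRIG1 (ENSG00000144749, locus 66119284 to 66551687 as deposited, on a build that the table does not name) codes for a membrane protein that lowers the level of EGFR and other ERBB receptors. It had 9.58, 6.69 and 7.15 FPKM in PC9-GR, against 0.125, 0.179 and 0.153 FPKM in PC9. Every PC9 library was close to absence and every PC9-GR library was well above 1 FPKM, with no overlap. The ratio of means was 51.3-fold, the largest among the 60 genes, and the log2 difference was 2.92 ± 0.15 (limma SE). Its neighbours among the 60 had lower levels on either side: 10 genes in succession from SEMA3F to MAGI1, and 6 from KBTBD8 to CADM2.

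MAGI1, a scaffold protein of cell junctions, is separated from LRIG1 by 1 RefSeq coding gene. It had 1.56, 1.81 and 1.22 FPKM in PC9-GR, against 7.67, 6.42 and 5.51 FPKM in PC9. The lowest PC9 library was above the highest PC9-GR library, and the means differed 4.27-fold, with MAGI1 lower in PC9-GR. The sequences before the starts of these nearby genes of opposite direction are shown from RefSeq on GRCh38.p14, 250 bases each on the minus strand, with matches to CCAAT or GGGCGG on either strand in capitals. LRIG1 lies at chr3:66501122-66501371 and MAGI1 at chr3:66038919-66039168.
LRIG1: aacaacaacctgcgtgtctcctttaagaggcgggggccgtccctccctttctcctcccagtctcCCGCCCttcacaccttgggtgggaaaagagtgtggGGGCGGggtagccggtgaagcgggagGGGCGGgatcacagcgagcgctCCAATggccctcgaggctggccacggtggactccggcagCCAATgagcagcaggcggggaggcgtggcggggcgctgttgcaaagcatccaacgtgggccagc
MAGI1: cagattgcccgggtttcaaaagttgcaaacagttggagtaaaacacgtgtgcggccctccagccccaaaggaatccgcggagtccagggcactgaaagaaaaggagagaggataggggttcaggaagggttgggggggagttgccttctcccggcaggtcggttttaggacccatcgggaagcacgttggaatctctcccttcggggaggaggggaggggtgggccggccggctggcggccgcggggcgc
The annotated start farthest upstream was used, which is 1 of 4 for LRIG1 and the only 1 for MAGI1. The stretch before LRIG1 holds 18 CpG dinucleotides, 2 matches to CCAAT and 3 to GGGCGG. That before MAGI1 holds 16 CpG and no match to either motif. Among 15843 RefSeq coding genes with such a stretch, 34.5% hold CCAAT and 55.8% hold GGGCGG. These matches are letters in a window and say nothing of a factor's binding.

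PRICKLE2, a planar cell polarity protein, had 0.567, 0.676 and 0.956 FPKM in PC9-GR, against 2.98, 2.74 and 3.01 FPKM in PC9. FRMD4B, a FERM domain scaffold, had 0.492, 0.982 and 0.955 FPKM in PC9-GR, against 1.75, 1.81 and 1.90 FPKM in PC9. Neither overlapped between the lines, and the PC9-GR libraries of both were all under 1 FPKM. PRICKLE2 was 3.97-fold lower and FRMD4B 2.24-fold. The FRMD4B call was lost with equal library totals.

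ADAMTS9, a secreted metalloprotease that cuts proteoglycans, lies between PRICKLE2 and MAGI1 with no coding gene between these neighbours in RefSeq. It had 1.34, 1.07 and 1.32 FPKM in PC9-GR, against 4.79, 3.87 and 5.91 FPKM in PC9. The PC9-GR libraries were close together and the PC9 libraries spread more widely above them. The mean was 3.91-fold lower in PC9-GR, and the locus is shared in the table with ADAMTS9-AS1, so reads may be divided between the pair. Over the 10 genes from 63 to 90 Mb, the 9 lower ones had a median of 3.21-fold, against 2.30-fold for the 12 lower genes from 40 to 63 Mb and 2.37-fold for the 8 below 40 Mb.

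VIPR1, a receptor for vasoactive intestinal peptide, had 0.366, 0.437 and 0.306 FPKM in PC9-GR, against 3.66, 3.34 and 2.57 FPKM in PC9. SEMA3F, a secreted semaphorin that acts through neuropilins, had 2.01, 3.28 and 2.82 FPKM in PC9-GR, against 9.49, 9.20 and 7.07 FPKM in PC9. The lines did not overlap for either gene, and VIPR1 was under 1 FPKM in each PC9-GR library. VIPR1 was 8.64-fold lower, the largest decrease of the set by ratio, with a log2 difference of -1.61 ± 0.13 (limma SE), and SEMA3F was 3.18-fold lower. The VIPR1 locus is shared with VIPR1-AS1 in the table, and its reads may be divided between them.

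Further receptors and adhesion genes were below the filter. ROBO2, a receptor for Slit guidance proteins, had 0.147, 0.276 and 0.254 FPKM in PC9-GR, against 0.983, 0.626 and 1.08 FPKM in PC9. CADM2, a cell adhesion molecule and the gene nearest to 90 Mb from below, had 0.0999, 0.159 and 0.317 FPKM in PC9-GR, against 0.501, 0.634 and 0.714 FPKM in PC9. PTH1R, the receptor for parathyroid hormone, went the other way with 0.725, 0.977 and 0.836 FPKM in PC9-GR, against 0.0840, 0.156 and 0.209 FPKM in PC9. All 3 were low in both lines and did not overlap between them, with ROBO2 and CADM2 at lower values and PTH1R at higher values in PC9-GR. The peptide hormone CCK averaged 0.0989 ± 0.0540 FPKM in PC9-GR, against 0.384 ± 0.185 FPKM in PC9. The potassium channel KCNH8 averaged 0.143 ± 0.112 FPKM in PC9-GR, against 0.401 ± 0.0742 FPKM in PC9, with PC9-GR replicate 1 at 0.0307 FPKM.

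**Figure D3:**
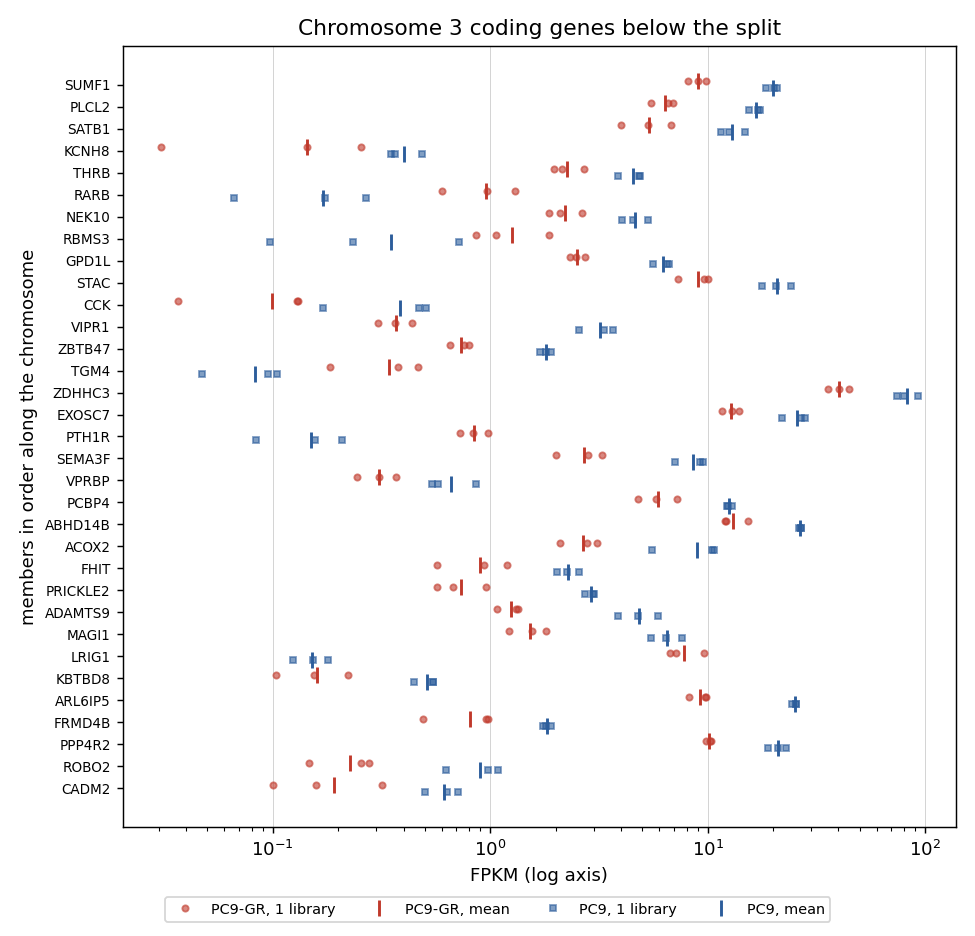
FPKM on a log axis for the named genes below the 90 Mb split, in chromosomal order from the top; small points are single libraries and vertical ticks are means of 3 libraries, with PC9-GR drawn above PC9. PC9-GR lies left of PC9 except for RARB, RBMS3, TGM4, PTH1R and LRIG1.

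ACOX2, a peroxisomal oxidase of branched-chain lipids and bile acid precursors, had 2.80, 2.10 and 3.09 FPKM in PC9-GR, against 5.57, 10.5 and 10.7 FPKM in PC9. GPD1L, a relative of glycerol-3-phosphate dehydrogenase, had 2.49, 2.33 and 2.73 FPKM in PC9-GR, against 6.62, 5.63 and 6.53 FPKM in PC9. PLCL2, a phospholipase C-like protein without catalytic activity, had 6.57, 5.52 and 6.96 FPKM in PC9-GR, against 15.5, 17.1 and 17.5 FPKM in PC9. The lines were apart for all 3, and PC9 replicate 1 was the low PC9 library for ACOX2. ACOX2 was 3.35-fold lower, GPD1L 2.49-fold and PLCL2 2.63-fold. SUMF1, which activates sulfatases and is the set's gene nearest the start of the chromosome, was 2.21-fold lower, at 9.003 ± 0.842 FPKM in PC9-GR and 19.9 ± 1.22 FPKM in PC9.

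FHIT, a hydrolase of diadenosine triphosphate, had 0.569, 0.933 and 1.19 FPKM in PC9-GR, against 2.56, 2.26 and 2.04 FPKM in PC9. The highest PC9-GR library was below the lowest PC9 library, and the mean was 2.54-fold lower in PC9-GR. Its call was lost with equal library totals. FHIT belongs to a list of 34 genes of the 3p tumour suppressor region, of which 6 are in the table and all 6 are in the set. Of these, SEMA3F and FHIT were called lower and LRIG1 higher, while RARB, ROBO2 and CADM2 were untested; among all tested genes 51.3% were called lower and 48.4% higher. The median log2 difference of the 6 was -0.53, against -0.96 over the 34 genes of that side and 0.36 over all listed coding genes.

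THRB, a thyroid hormone receptor, had 2.70, 2.14 and 1.96 FPKM in PC9-GR, against 4.91, 4.84 and 3.86 FPKM in PC9. RARB, its next coding neighbour in RefSeq and a retinoic acid receptor, had 0.601, 1.30 and 0.970 FPKM in PC9-GR, against 0.175, 0.269 and 0.0667 FPKM in PC9. THRB was lower in every PC9-GR library and RARB higher in every one, so these adjacent genes pointed in opposite directions without overlap in either. The ratio of means was 2.00-fold lower for THRB, whose call was lost with equal library totals. For RARB it was 5.63-fold higher, at levels under the filter and with no call.

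SATB1, a chromatin organiser, had 4.0008, 6.7958 and 5.3002 FPKM in PC9-GR, against 12.6, 14.9 and 11.6 FPKM in PC9. ZBTB47, a zinc finger protein, had 0.798, 0.757 and 0.656 FPKM in PC9-GR, against 1.90, 1.70 and 1.80 FPKM in PC9. Both were lower in each PC9-GR library, by 2.42-fold and by 2.44-fold. The SATB1 locus also holds AC144521.1 in the table. RBMS3, an RNA-binding protein, was below the filter with 1.06, 1.86 and 0.865 FPKM in PC9-GR, against 0.0974, 0.234 and 0.720 FPKM in PC9, close but not overlapping.

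ZDHHC3 and EXOSC7 start 70 bases apart on opposite strands and share 1 locus in the table. ZDHHC3, a palmitoyltransferase of the Golgi, had 35.62, 44.53 and 40.02 FPKM in PC9-GR, against 74.1, 92.5 and 80.1 FPKM in PC9. EXOSC7, a subunit of the RNA exosome, had 12.99, 13.93 and 11.61 FPKM in PC9-GR, against 28.0, 22.0 and 26.9 FPKM in PC9. The pair was lower in all PC9-GR libraries, by 2.05-fold and by 2.00-fold. The stretch between the starts, at chr3:44976175-44976243 on the plus strand of GRCh38.p14 in RefSeq, is shown because the pair moved together, with GGGCGG in capitals.
ZDHHC3 and EXOSC7: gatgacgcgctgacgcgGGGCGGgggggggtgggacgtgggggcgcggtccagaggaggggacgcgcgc
Its 69 bases hold 11 CpG dinucleotides, 1 match to GGGCGG and no CCAAT. Both calls were lost with equal library totals, and that of ZDHHC3 also under quantile normalization.

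TGM4, a transglutaminase and the coding gene just before ZDHHC3, had 0.376, 0.465 and 0.182 FPKM in PC9-GR, against 0.0473, 0.105 and 0.0953 FPKM in PC9. It was low in both lines, under the filter and above every PC9 library in PC9-GR. A second shared locus holds PCBP4, which binds poly(C) RNA, and ABHD14B, an alpha/beta hydrolase. PCBP4 had 4.79, 7.25 and 5.77 FPKM in PC9-GR, against 12.9, 12.4 and 12.3 FPKM in PC9. ABHD14B had 12.0035, 15.277 and 12.1029 FPKM in PC9-GR, against 26.8, 26.3 and 26.8 FPKM in PC9. Both were lower without overlap, by 2.11-fold and by 2.03-fold, and both lost their call with equal library totals. The sources used here do not say how the authors' counting divided reads within shared loci.

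The other lower genes below 90 Mb serve varied functions. ARL6IP5, a protein of the endoplasmic reticulum membrane, had 8.21, 9.76 and 9.86 FPKM in PC9-GR, against 24.3, 25.6 and 25.5 FPKM in PC9. STAC, an SH3 domain adaptor, averaged 9.01 ± 1.47 FPKM in PC9-GR, against 20.8 ± 3.23 FPKM in PC9. The libraries of each line were tight for ARL6IP5, which was 2.71-fold lower, and STAC was 2.31-fold lower. PPP4R2, a regulatory subunit of protein phosphatase 4, had 9.86, 10.3 and 10.4 FPKM in PC9-GR, against 18.9, 21.0 and 23.0 FPKM in PC9. The kinase gene NEK10 had 2.10, 1.87 and 2.63 FPKM in PC9-GR, against 4.04, 5.30 and 4.53 FPKM in PC9. Both were lower in each PC9-GR library, by 2.06-fold and by 2.10-fold, and both lost their call with equal library totals. KBTBD8, a substrate adaptor of the CUL3 ubiquitin ligase, and VPRBP, a receptor of the CUL4 ligase now named DCAF1, were under the filter. KBTBD8 averaged 0.160 ± 0.0597 FPKM in PC9-GR, against 0.514 ± 0.0584 FPKM in PC9, and VPRBP averaged 0.308 ± 0.0623 FPKM in PC9-GR, against 0.659 ± 0.172 FPKM in PC9.

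Above 90 Mb, HEG1 (ENSG00000173706, 124684553 to 124774802 in the table), a membrane receptor known from endothelial junctions, had 26.0, 38.9 and 31.7 FPKM in PC9-GR, against 5.63, 4.11 and 4.12 FPKM in PC9. The lowest PC9-GR library was far above the highest PC9 library. The ratio was 6.96-fold, and the log2 difference of 2.55 ± 0.17 (limma SE) was the largest of the 26 genes on this side. None of the 6 endothelial marker genes looked up is in the table, and they were not analysed here.

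ARHGAP31, which switches off Rac1 and Cdc42, had 4.76, 6.20 and 5.09 FPKM in PC9-GR, against 0.980, 0.961 and 0.844 FPKM in PC9. MYLK, the myosin light chain kinase, had 3.10, 3.88 and 3.52 FPKM in PC9-GR, against 0.246, 0.854 and 0.110 FPKM in PC9. KALRN, a guanine nucleotide exchange factor, had 1.54, 2.26 and 2.19 FPKM in PC9-GR, against 0.664, 0.490 and 0.628 FPKM in PC9. In all 3 every PC9 library was under 1 FPKM and every PC9-GR library above it, and the PC9 libraries of MYLK varied most. ARHGAP31 was 5.76-fold higher, MYLK 8.68-fold and KALRN 3.37-fold. These lie with HEG1 in a run of 11 higher genes from GAP43 to SERPINI1, which spans 52.2 Mb.

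Markers of other cell types also differed. Of 8 fibroblast markers only PDGFRB is in the table, at 3.77, 3.69 and 2.38 FPKM in PC9-GR, against 0.143, 0.0749 and 0.0661 FPKM in PC9. Of 8 haematopoietic markers 5 are listed, with a summed level of 46.2 to 57.0 FPKM in PC9-GR and 20.5 to 24.6 FPKM in PC9, most of it CD68. Of these, CD68, CORO1A, ITGAM and ITGAX were called higher and LYZ was under the filter at lower values. Among all 1207 tested genes, 48.4% were called higher and 51.3% lower, so the marker calls show direction only. HCLS1, a cortactin relative of blood cells, had 0.619, 0.756 and 0.560 FPKM in PC9-GR, against 0.0537, 0.0453 and 0.117 FPKM in PC9. It was higher in each PC9-GR library, 8.95-fold by the means, but under 1 FPKM throughout and without a call. The part of these markers in the results was not tested.

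PROS1, the anticoagulant protein S and a ligand of TAM receptors, is the gene nearest to 90 Mb from above. It had 6.26, 7.62 and 8.78 FPKM in PC9-GR, against 2.44, 2.52 and 2.71 FPKM in PC9. PC9 libraries were tight and all below the PC9-GR libraries, and the mean was 2.96-fold higher in PC9-GR. CSTA, the protease inhibitor cystatin A, which acts inside cells, had 14.4, 13.7 and 15.3 FPKM in PC9-GR, against 5.9276, 6.032 and 8.9995 FPKM in PC9. SERPINI1, or neuroserpin, had 3.68, 6.17 and 5.54 FPKM in PC9-GR, against 1.81, 2.80 and 2.66 FPKM in PC9. Neither overlapped between the lines, and they were 2.07-fold and 2.12-fold higher.

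ABI3BP, a matrix protein, was the least even of the called genes, with 2.87, 7.10 and 8.53 FPKM in PC9-GR, against 0.908, 3.66 and 0.678 FPKM in PC9. PC9-GR replicate 1 lay below PC9 replicate 2, so the lines overlapped, and the log2 difference of 1.44 had a limma SE of 0.42. HRG, a histidine-rich plasma glycoprotein, was under the filter with 1.10, 0.903 and 1.19 FPKM in PC9-GR, against 0.244, 0.395 and 0.491 FPKM in PC9. TNFSF10, the death ligand TRAIL, was also under it with 0.0304, 0.363 and 0.362 FPKM in PC9-GR, against 0.456, 0.957 and 0.445 FPKM in PC9. HRG was higher and TNFSF10 lower in every PC9-GR library, with PC9-GR replicate 1 near absence for TNFSF10.

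ALCAM (ENSG00000170017, 105085752 to 105295744 in the table), a cell adhesion molecule of the immunoglobulin superfamily, was the most abundant of the 60 with 158.3, 149.6 and 172.2 FPKM in PC9-GR, against 294.4, 325.9 and 348.4 FPKM in PC9. The lines were far apart and the mean was 2.02-fold lower in PC9-GR. Its call was lost with equal library totals, where the log2 difference was -0.21. Under quantile normalization the log2 difference was 0.086, without a call, and under every other setting it was negative. Both scalings were computed over the listed genes alone, all selected as changed. GPR160, an orphan G protein-coupled receptor, had 17.6, 22.1 and 21.9 FPKM in PC9-GR, against 61.4, 55.5 and 48.9 FPKM in PC9. CD200, an immune-inhibitory ligand, had 0.399, 0.388 and 0.863 FPKM in PC9-GR, against 1.11, 1.10 and 1.37 FPKM in PC9. Both were lower without overlap, by 2.69-fold and by 2.17-fold, and CD200 lost its call with equal library totals.

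Higher surface genes were IL20RB and MUC4. IL20RB, a receptor chain for cytokines of the IL-20 family, had 1.63, 2.05 and 2.44 FPKM in PC9-GR, against 0.9244, 0.7493 and 0.5999 FPKM in PC9. MUC4, a membrane mucin that can bind ERBB2, had 8.70, 4.81 and 5.86 FPKM in PC9-GR, against 2.67, 1.99 and 3.61 FPKM in PC9. The lines did not overlap, and the genes were 2.69-fold and 2.34-fold higher. MUC4, SERPINI1 and TNFSF10 are the only entries in the table from a list of 41 genes of the amplified 3q region. Limma called MUC4 and SERPINI1 higher, as it did 48.4% of all 1207 tested genes, with 51.3% called lower. The median log2 difference of the 3 was 0.83.

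**Figure D4:**
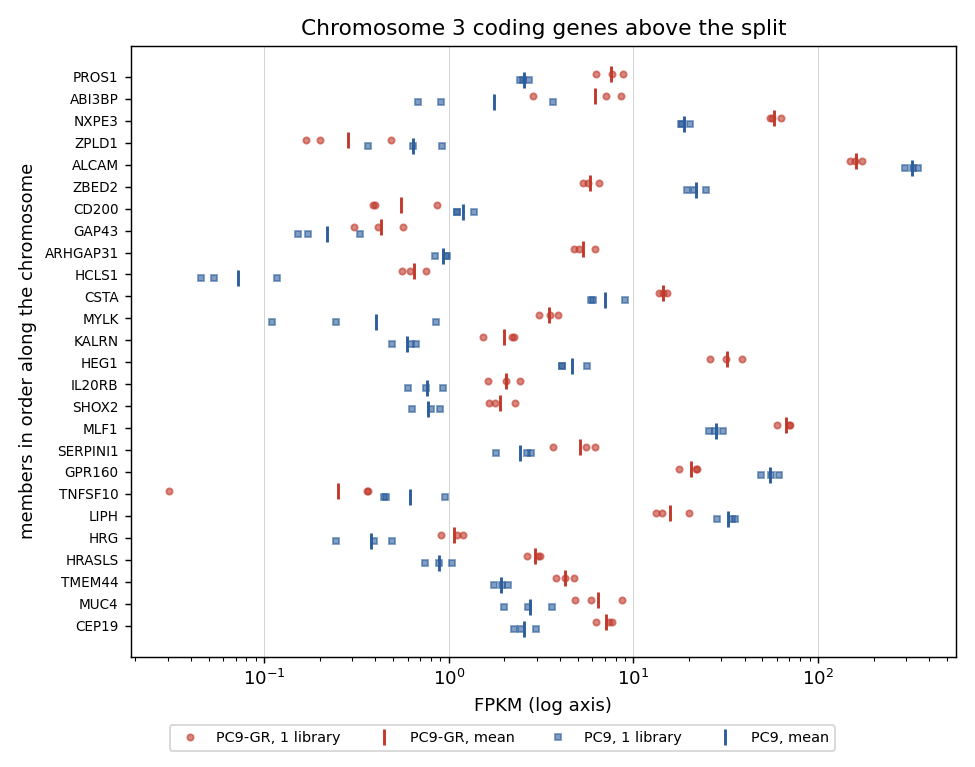
FPKM on a log axis for the 26 genes above the 90 Mb split, in chromosomal order from the top; small points are single libraries and vertical ticks are means of 3 libraries, with PC9-GR drawn above PC9. PC9-GR lies right of PC9 for 19 genes, and libraries of the lines overlap for ABI3BP, ZPLD1 and GAP43.

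LIPH, a lipase that forms lysophosphatidic acid, had 13.2, 20.1 and 14.3 FPKM in PC9-GR, against 35.5, 34.1 and 28.3 FPKM in PC9. HRASLS, a phospholipid acyltransferase now named PLAAT1, had 3.13, 3.04 and 2.65 FPKM in PC9-GR, against 0.739, 0.885 and 1.04 FPKM in PC9. LIPH was 2.06-fold lower in PC9-GR and lost its call with equal library totals, while HRASLS was 3.31-fold higher. A list of 52 genes drawn up as metabolic enzymes of the chromosome shares PLCL2, GPD1L, ABHD14B and LIPH with the set. Limma gave each of the 4 a lower call, which ABHD14B and LIPH lost with equal library totals. PLCL2 has no catalytic activity, and the list left out HRASLS, which was called higher, and ACOX2, which was called lower. The single direction therefore depends on which genes the list held. Of all tested genes 51.3% were called lower, and PLCL2, GPD1L and ABHD14B lie below 90 Mb, where 23 of 24 tested genes were.

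Transcription regulators above 90 Mb were ZBED2 and SHOX2. ZBED2, a zinc finger transcription factor, had 5.71, 6.49 and 5.35 FPKM in PC9-GR, against 19.5, 24.7 and 21.2 FPKM in PC9. It was 3.72-fold lower, the largest decrease among the 26 genes on this side, with no overlap. SHOX2, a homeobox factor, had 1.64, 2.27 and 1.79 FPKM in PC9-GR, against 0.802, 0.631 and 0.892 FPKM in PC9. It was 2.45-fold higher, with every PC9 library under 1 FPKM. From a list of 41 transcription and chromatin regulators coded on the chromosome, SATB1 and THRB were called lower, SHOX2 higher, and RARB was untested. Limma called 51.3% of all 1207 tested genes lower and 48.4% higher, so these calls show direction only.

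The most abundant higher genes were MLF1 and NXPE3. MLF1, named for a fusion in myeloid leukaemia, had 60.2, 69.8 and 70.4 FPKM in PC9-GR, against 30.5, 27.8 and 25.6 FPKM in PC9. NXPE3 had 63.3, 54.8 and 56.3 FPKM in PC9-GR, against 18.2, 20.2 and 18.2 FPKM in PC9. Both were clearly apart, 2.39-fold and 3.08-fold higher in PC9-GR. CEP19, a centrosomal protein and the set's last gene along the chromosome, had 6.26, 7.34 and 7.67 FPKM in PC9-GR, against 2.26, 2.95 and 2.46 FPKM in PC9. TMEM44, a transmembrane protein, averaged 4.28 ± 0.480 FPKM in PC9-GR, against 1.93 ± 0.178 FPKM in PC9. CEP19 was 2.78-fold and TMEM44 2.22-fold higher, and they end a run of 5 higher genes of the set that begins with HRG.

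GAP43, a growth cone protein, had 0.308, 0.567 and 0.413 FPKM in PC9-GR, against 0.172, 0.330 and 0.151 FPKM in PC9. ZPLD1 had 0.169, 0.201 and 0.488 FPKM in PC9-GR, against 0.363, 0.637 and 0.919 FPKM in PC9. Both were under the filter, and in each the libraries of the lines overlapped, so neither difference exceeded the spread between libraries in full.

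Of 43 listed secreted and matrix proteins coded on chromosome 3, 5 are in the set: SEMA3F and ADAMTS9 were called lower, SERPINI1 higher, and TNFSF10 and HRG were untested. Of 80 listed receptors, channels and adhesion proteins, 9 are in the set, with 3 called lower (ALCAM, CD200 and GPR160), 2 called higher (LRIG1 and MUC4) and 4 untested. Limma called 1203 of the 1207 genes tested in the whole table, 51.3% lower and 48.4% higher, so these counts show the directions of the list members and nothing more. These lists were drawn up with earlier results of the same libraries known, and they describe the set only.

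Read along the chromosome, the 60 genes form 16 runs of one direction, of which 6 are single genes (RARB, NEK10, RBMS3, TGM4, PTH1R and LRIG1). Since 29 of 34 genes were lower on one side and 19 of 26 higher on the other, nothing is read from the length of a run, which was not tested. The longest were the 11 higher genes from GAP43 to SERPINI1 and the 10 lower genes from SEMA3F to MAGI1, which cover 16.05 Mb. Other runs of at least 4 lower genes were SUMF1 to THRB (5 genes), GPD1L to ZBTB47 (5) and KBTBD8 to CADM2 (6), and above 90 Mb ZPLD1 to CD200 (4). From PROS1 to GAP43, 4 of 8 genes were higher, and from ARHGAP31 to CEP19 15 of 18 were. The runs are thin samples of the chromosome: the set holds 6.92% of the 491 RefSeq coding genes up to CADM2 and 4.602% of the 565 from PROS1 onward. Runs are counted within the set only. CLDN1 and COL8A1, which were left out of it, were called lower and lie inside runs of higher genes. Genes in between that the table does not list were not analysed here.

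In 9 cases genes of the set are direct coding neighbours in RefSeq. SATB1 and KCNH8, ZDHHC3 and EXOSC7, PCBP4 and ABHD14B, PRICKLE2 and ADAMTS9, ADAMTS9 and MAGI1, and ZPLD1 and ALCAM had the same direction, lower in PC9-GR. THRB and RARB, TGM4 and ZDHHC3, and LRIG1 and KBTBD8 had opposite directions. In each of these opposed pairs the higher gene was under 1 FPKM in every PC9 library.

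Features that the selection did not use were also compared as descriptions. The median deposited locus was 215.1 kb long below 90 Mb and 93.3 kb above it, against 55.4 kb over all listed coding genes. A deposited locus can hold more than 1 gene, so these are lengths of loci and not of genes. The 7 genes whose locus overlaps that of another listed gene all lie below 90 Mb. Overlap with genes that the table does not list was not looked at on either side. For the 53 of 60 genes with a RefSeq entry, the 250 bases before the annotated start farthest upstream were searched, and other starts were not. At least 15 CpG dinucleotides were found there for 13 of 23 lower genes below 90 Mb (56.5%). The same held for 6 of 18 higher genes above it (33.3%) and 2 of 7 lower genes above it (28.6%). Of the higher genes below 90 Mb it held for 2 of 5 (40%). The share was 57.1% over all RefSeq coding genes and 57.5% over those of chromosome 3. CCAAT was found for 13 of the 53 (24.5%) and GGGCGG for 28 (52.8%), against 34.5% and 55.8% over all RefSeq coding genes, counting both strands. Over the RefSeq coding genes of chromosome 3 the shares were 30.9% for CCAAT and 55.7% for GGGCGG.

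Starting levels in PC9 are tied to direction by the selection, since higher genes tend to be low there and lower genes high. They are given as a description only. In PC9, 11 of the 29 lower genes below 90 Mb were above 10 FPKM, while all 5 higher genes there were under 1 FPKM. Of the 19 higher genes above 90 Mb, 9 were under 1 FPKM in PC9. Of all 834 lower genes listed, 314 were above 10 FPKM in PC9, and of all 871 higher genes 522 were under 1 FPKM there. The median coefficient of variation among libraries was 19.2% in PC9-GR and 13.4% in PC9 for genes below 90 Mb, and 16.2% in PC9-GR and 17.05% in PC9 for those above.

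The genes nearest to the table's threshold were ABHD14B and THRB on the lower side, with log2 ratios of -1.0005 and -1.003 in the authors' deposited table, and GAP43 on the higher side with 1.0095. No listed gene lies within the threshold, so those just outside it were not analysed here. A q-value under 0.05 is given for 55 of the 60 genes in the authors' deposited table, and the largest q-value is 0.0729. SHOX2 and TMEM44, which limma called higher, have q-values of 0.0630 and 0.0644 in the authors' deposited table.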

How the data were processed

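Per the labels, total RNA was extracted with Trizol and prepared with the SureSelect kit of Agilent, which keeps strand. TopHat and Cufflinks were used per the submitters' processing notes; the versions, genome build, annotation, strand setting and gene selection were not given in the sources used here. Without a known strand setting, reads of a gene and its antisense partner cannot be told apart. Per the file headers, the deposited columns are FPKM by library and by group, the authors' ratio (PC9-GR over PC9) with its log2 value, a p-value and q-value, and a coefficient of variation per group whose formula is not given. The table has no counts, so depth is unknown and intervals for counting error cannot be given.

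The deposited library FPKM was taken to log2(FPKM + 1), which understates changes of low genes. Genes at 1 FPKM or more in at least 3 of 6 libraries were fitted together over the whole table with limma 3.58.1 in R 4.3.3 (two-sided moderated test, variance trend, group as the only term, Benjamini-Hochberg adjustment over 1207 genes, calls at adjusted p under 0.05). Folds are ratios of mean FPKM. The step was tested on simulated data. Other steps used Python 3.11.15 with pandas 2.3.3 and figures matplotlib 3.10.9.

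The genes, lists and tests were chosen with earlier results of these data known. Library values are given by rule for called genes with large differences (up to 8 on each side and in each direction), list members, genes that bound runs, genes nearest to 90 Mb or to the threshold, and genes without a call or losing it; the rest appear as means, and 1 gene below 90 Mb is counted but not reported singly or drawn here. Loci are the table's own and were not mixed with the GRCh38.p14 coordinates of RefSeq. Alternatives were another pseudocount, 2 other filters, 3 scalings, left-out libraries, a replicate block, other split positions and leaving out loci shared between listed genes.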

Additional observations from a re-analysis of the deposited data

How the results depend on the processing

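Leaving out each library in turn kept the direction of all 60 genes and the call of the 45 tested ones. These calls were 23 lower and 1 higher below 90 Mb, and 5 lower and 16 higher above. Median log2 differences were -0.99 to -0.89 below and 0.78 to 0.90 above. The tested genes were fixed, and the table had been selected, on all 6 libraries, so this stability was largely built in. With a pseudocount of 0.1 FPKM the medians were -1.17 below and 1.22 above. Without the filter 29 genes below 90 Mb were called lower and 5 higher; with a filter at 5 FPKM 15 were called lower below and 6 higher above, since fewer genes were tested. Equal library totals left 14 lower calls below and 2 above, with medians of -0.25 and 1.39. This scaling also moved the median of all listed genes by 0.20. Each library had 1 factor for all its genes, 1.36 to 1.39 in PC9-GR and 0.76 to 0.82 in PC9. The 0.20 is therefore the move of a median and not of each gene. Median-ratio scaling gave medians of -1.24 below and 0.61 above. Quantile normalization gave -0.78 below, moved the median of all listed genes by -0.13 and turned ALCAM to 0.086; the cause was not tested. A split at 100 Mb gave 2 higher calls below it. Without the 7 genes that share a locus with another listed gene, the median below was -0.76. Same-numbered libraries had correlations of -0.10, 0.08 and 0.16 between their deviations from the group means. With 3 libraries a group, these values cannot decide whether the numbers pair the libraries. With the replicate block the calls were 23 and 1 below and 5 and 16 above, as without it, and 1205 against 1203 genes were called in the whole table; PC9-GR replicate 3 and PC9 replicate 3 were the only pair in which both libraries correlated best with their own number. Depth is unknown, and levels under 1 FPKM are the least certain.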

Other observations

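The table also lists 21 rows of chromosome 3 that are not typed as protein-coding, chiefly long non-coding and antisense RNAs. Of the 9 below 90 Mb all had lower values in PC9-GR, and of the 12 above it 7 were lower and 5 higher. Limma called 9 of the 21 lower and 3 higher, and 9 were under the filter. All 12 tested rows were thus called, as were 1203 of the 1207 genes tested in the whole table (51.3% lower and 48.4% higher). The antisense RNA VIPR1-AS1 averaged 0.0508 ± 0.00844 FPKM in PC9-GR, against 0.454 ± 0.191 FPKM in PC9 (SD, n = 3 each), and ADAMTS9-AS1 averaged 0.179 ± 0.105 FPKM in PC9-GR, against 0.845 ± 0.239 FPKM in PC9. Each shares a locus with its coding partner, which was lower as well. AC144521.1, which shares the SATB1 locus, averaged 1.03 ± 0.103 FPKM in PC9-GR, against 2.63 ± 0.359 FPKM in PC9. AC139452.2 was listed at the table's floor in the 3 PC9-GR libraries and at 0.477, 0.247 and 1.26 FPKM in PC9.

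Above 90 Mb the long non-coding RNA LINC00973 had 1.46, 1.93 and 2.40 FPKM in PC9-GR, against 5.77, 5.75 and 9.35 FPKM in PC9, and it was called lower. RP11-573D15.1, near HRG in the table, had 4.44, 6.45 and 6.57 FPKM in PC9-GR, against 2.00, 1.67 and 1.26 FPKM in PC9, and it was called higher. The lines did not overlap for either. These rows were named after their values were seen, and they come from the same selected table.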
